A study of Mus musculus with 3 samples.

Results

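The oxidant and smoke response was followed through 42 genes across the leukocytes of the mouse suprarenal aorta. They were the rows that match a list of NRF2 targets, glutathione, thioredoxin, peroxiredoxin, pentose phosphate, NADPH oxidase and aryl hydrocarbon receptor genes. All 42 of the listed genes were among the 27998 genes of the count matrices, and their level was not part of the choice. The 3 single-cell libraries were each made from the pooled aortas of its group, so there was 1 library per group and no replicate. The aneurysm library pooled 4 Apoe-/- mice that ate a Western diet and breathed cigarette smoke for 16 weeks and had a measurable dilatation of the aorta. The room air library pooled 5 Apoe-/- mice on the same diet for 16 weeks, and the control library pooled 5 C57BL/6 mice on chow. Aneurysm against room air therefore joins smoke with the selection of mice that dilated, and room air against control joins the loss of Apoe with the diet. The effects within each pair cannot be told apart. Aneurysm and room air share the loss of Apoe and the diet, and 1 pool stands for each group.

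NRF2, encoded by Nfe2l2, is a transcription factor that KEAP1 holds in the cytoplasm and passes to degradation. Oxidants and electrophiles modify KEAP1, NRF2 then accumulates, pairs with small MAF proteins and binds antioxidant response elements of genes that make glutathione, recycle thioredoxin and supply NADPH. The aryl hydrocarbon receptor, encoded by Ahr, binds polycyclic hydrocarbons of tobacco smoke, pairs with ARNT and induces Cyp1a1, Cyp1b1, Ahrr and Tiparp. Macrophages and neutrophils are also a source of oxidants through the phagocyte NADPH oxidase, whose membrane subunits are encoded by Cybb and Cyba and whose cytosolic organiser is encoded by Ncf1.

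Promoter sequence from RefSeq on GRCm38.p6, 250 bases before to 50 bases after each start, was on hand for 37 of the 42 genes. The core letters of the antioxidant response element, TGACNNNGC or GCNNNGTCA on the other strand, were found in 11 of these 37 genes (29.7%), against 14.0% of all 27025 genes with a promoter. The 11 genes were Nfe2l2, Gclm, Srxn1, Txnrd1, Prdx1, Mgst1, Sod1, G6pdx, Pgd, Me1 and Arnt. The AP-1 core TGANTCA, which reads the same on both strands and forms the centre of many NRF2 sites, was found in 6 of the 37 genes (16.2%), against 8.97% of all genes. The core letters of the xenobiotic response element, GCGTG or CACGC, were found in 23 of the 37 genes (62.2%), against 35.2% of all genes. A match of letters is a description and not a bound site, and a window without one says nothing of sites elsewhere. The list was chosen for NRF2 and receptor genes, and all genes with a promoter include those not expressed here. The higher shares were not tested and are not read as an excess. Slc7a11 had neither NRF2-type core in its window. Shown are the promoters of Srxn1, Gclm and Txnrd1, whose levels the macrophage results turn on, and of Prdx1, where the antioxidant core and the AP-1 core overlap. All are on the plus strand, printed 5′ to 3′, and capitals mark matches to TGACNNNGC or to TGANTCA on either strand. The genes lie at chr2:152105516-152111376 (Srxn1, plus strand), chr3:122245557-122270732 (Gclm, plus strand) and, for the cystine importer, chr3:49892526-50443614 (Slc7a11, minus strand) on mm10, in the GENCODE M21 annotation. Counted from the start at 0, Srxn1 holds AP-1 cores at -102 and -45 and an antioxidant core at 28, Gclm an antioxidant core at -134, Prdx1 an antioxidant core at -133 and AP-1 cores at -237 and -131, and the second of 3 Txnrd1 promoters an antioxidant core at -92.
Srxn1 (chr2:152105274-152105573): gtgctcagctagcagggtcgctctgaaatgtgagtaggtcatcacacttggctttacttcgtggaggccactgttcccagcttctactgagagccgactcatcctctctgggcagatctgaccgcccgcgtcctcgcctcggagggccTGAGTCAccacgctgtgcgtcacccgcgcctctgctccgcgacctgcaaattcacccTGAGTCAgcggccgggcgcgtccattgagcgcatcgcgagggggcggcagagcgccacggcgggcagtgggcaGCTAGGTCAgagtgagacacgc
Gclm (chr3:122245307-122245606): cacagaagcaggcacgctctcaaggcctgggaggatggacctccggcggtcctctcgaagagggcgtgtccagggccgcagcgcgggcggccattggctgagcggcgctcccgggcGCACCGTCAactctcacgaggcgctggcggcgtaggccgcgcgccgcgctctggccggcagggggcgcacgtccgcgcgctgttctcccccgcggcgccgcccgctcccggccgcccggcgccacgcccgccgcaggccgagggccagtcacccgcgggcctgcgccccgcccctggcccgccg
Prdx1 (chr4:116685349-116685648): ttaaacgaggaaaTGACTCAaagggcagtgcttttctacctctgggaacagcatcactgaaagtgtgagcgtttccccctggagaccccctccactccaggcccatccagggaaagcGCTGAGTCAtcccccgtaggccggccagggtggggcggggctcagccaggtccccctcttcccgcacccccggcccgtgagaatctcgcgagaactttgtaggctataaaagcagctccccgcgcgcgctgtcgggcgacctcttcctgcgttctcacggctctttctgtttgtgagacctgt
Txnrd1 (chr10:82858956-82859255): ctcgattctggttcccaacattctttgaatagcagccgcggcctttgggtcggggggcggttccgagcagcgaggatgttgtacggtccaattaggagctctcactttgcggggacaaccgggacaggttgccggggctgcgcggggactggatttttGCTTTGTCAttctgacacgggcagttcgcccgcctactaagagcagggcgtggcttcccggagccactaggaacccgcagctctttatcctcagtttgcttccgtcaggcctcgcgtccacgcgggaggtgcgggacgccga

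The matrices held 2842 cell barcodes and 16698309 UMIs (counted transcript molecules) in the aneurysm library, 1851 and 9998517 in the room air library and 782 and 2568192 in the control library, beside 2685, 1736 and 738 cells stated in the labels. After filters on genes, mitochondrial share and likely doublets, 5368 of 5475 barcodes were kept. Cells carried a median of 4476, 3884 and 2681 UMIs in the aneurysm, room air and control libraries, and the stated viability was 94%, 91% and 73%. Apoe stood at 12.8 and 17.0 CPM (UMIs per 1000000 UMIs) in the aneurysm and room air libraries and at 10469 CPM in the control library, as the labelled genotypes state. Libraries shared at most 5 barcodes. RNA of other cells was present in all: T-like cells carried C1qa, a macrophage gene, at 153, 547 and 138 CPM in the aneurysm, room air and control libraries, with the highest level in room air. The labels name CD45+ leukocytes as well as a sort of CD45-CD31+ cells. Cluster 20 had Pecam1 at 1455, 1943 and 2709 CPM and Ptprc at 25.8, 35.7 and 31.0 CPM in the same order. Its marker score was highest for the endothelial list, at 4.06 with 11 of those markers detected, and next for smooth muscle, at 2.66. None of the listed endothelial markers was among its 10 leading genes, which include Ptprb and Ramp2. Under the naming rule it is therefore left without a cell type name. Levels are CPM, taken over the UMIs of a class, with exact Poisson 95% intervals, ratios carry exact conditional 95% intervals, and both cover counting error only and say nothing of the spread between mice. A ratio was counted as past the fold where it reached 1.5 or its inverse with at least 30 UMIs over both libraries. Nothing was tested for significance.

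Over all kept cells, aneurysm over room air had 1 of 37 measured members at least 1.5-fold higher (background 2.69%) and 1 lower (background 7.89%). Slc7a11, the cystine importer that feeds glutathione synthesis, stood at 28.3 CPM in aneurysm and 18.5 CPM in room air (1.53-fold, 1.29 to 1.83). Cyp1b1, a cytochrome that the aryl hydrocarbon receptor induces, stood at 1.92 and 5.00 CPM (0.39-fold, 0.24 to 0.62). Room air over control had 8 of 37 higher (background 19.9%) and 6 lower (background 10.4%). Slc7a11 had the highest ratio, 18.5 CPM in room air with 3.94 CPM in control (4.68-fold, 2.49 to 9.93), and Ephx1, Cyp1b1, Tiparp, Mgst1, Gstm1 and Sod1 were the lower ones. These sums mix the abundance of cell classes with the level in each class, so each class is described on its own.

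Several members differed in level between the cell classes. Classes are ranked here among those with at least 25 cells in the library, which leaves out the fibroblast-like cells. This gave 13 classes in aneurysm, 13 in room air and 9 in control. Monocyte-like cells had the highest Gsr, the glutathione reductase gene, at 409, 534 and 509 CPM in the aneurysm, room air and control libraries, where the median of the classes was 53.6, 70.7 and 21.7 CPM. They also led for Mgst1, a microsomal glutathione transferase, at 262, 310 and 514 CPM, and for Prdx5 at 1015, 1196 and 1113 CPM. Cybb, the catalytic oxidase subunit, was likewise high in monocyte-like cells, at 504, 650 and 660 CPM. Slc7a11 was highest in neutrophil-like cells, at 122 and 91.4 CPM in the aneurysm and room air libraries. Monocyte-like cells, at 80.0 and 54.2 CPM, and mature dendritic cell-like cells, at 74.4 and 57.0 CPM in the same order, came next. The neutrophil-like class also carried much macrophage RNA. Its C1qa stood at 3198 and 3667 CPM in aneurysm and room air, beside 4689 and 4769 CPM in macrophage-like cells. Lymphoid classes stood out for other members. Mgst2, which joins glutathione to leukotriene A4, reached 61.5, 59.8 and 58.5 CPM in T-like cells, against 3.70, 4.69 and 0 CPM in macrophage-like cells. Gstp1, a cytosolic transferase, reached 224 and 322 CPM in gamma-delta T-like cells of the aneurysm and room air libraries. Prdx6, a peroxiredoxin that also reduces phospholipid peroxides, stood at 500, 498 and 309 CPM in ILC2-like cells.

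Among dendritic cells, Taldo1, the transaldolase of the pentose phosphate pathway, stood at 1093, 1106 and 617 CPM in cDC1-like cells of the aneurysm, room air and control libraries, the highest class in aneurysm and room air but below monocyte-like cells, at 783 CPM, in control. Mature dendritic cell-like cells, with no cell in the control library, held Gpx4, the peroxidase of lipid peroxides, at 886 and 829 CPM in the aneurysm and room air libraries, close to the 824 and 829 CPM of ILC2-like cells. They also led for Gsto1 at 251 and 285 CPM. Among classes with at least 25 cells, the macrophage-like class was ahead for Gpx3, the secreted peroxidase, in the aneurysm library, at 35.2 CPM against 4.25 CPM in the median class. In the room air library it stood at 36.8 CPM and neutrophil-like cells at 46.7 CPM. Class differences of this kind come from 1 pool each and describe these libraries. The levels of Gstp1, Gstm1 and G6pdx may include or lose reads shared with near-identical relatives.

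**Figure D1:**
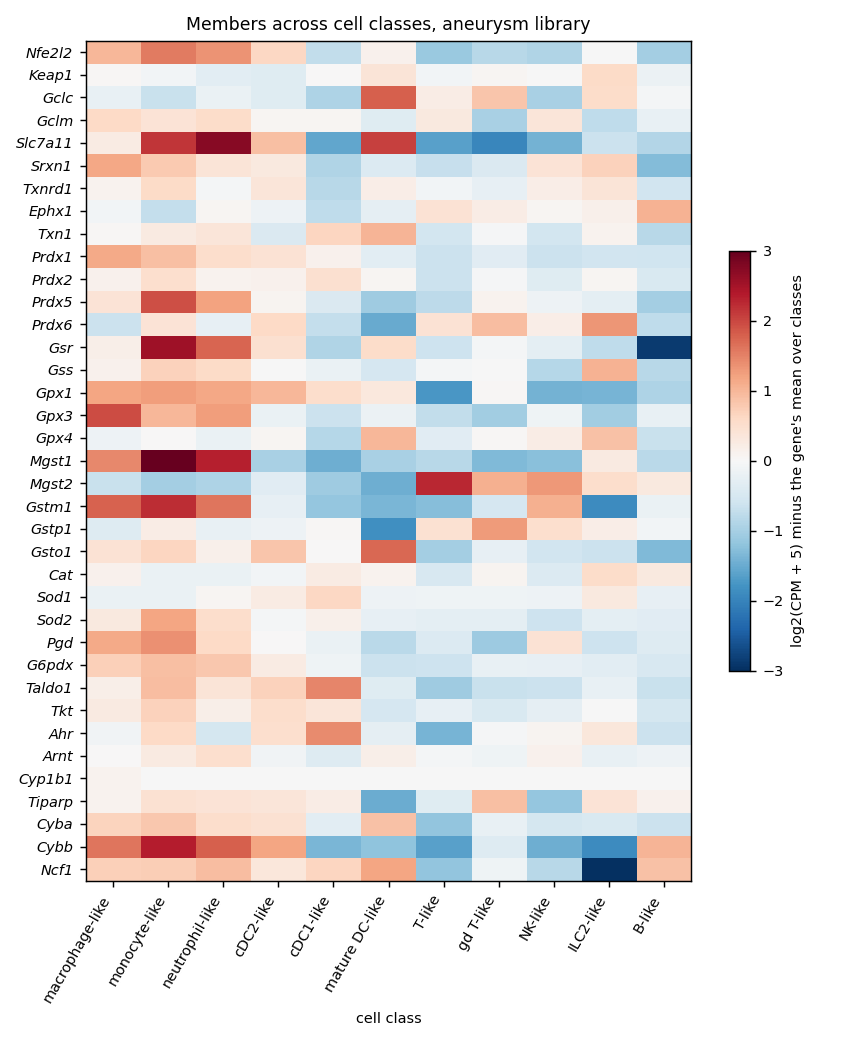
Level of each gene in 11 cell classes of the aneurysm library, as log2(CPM + 5) minus the gene's mean over the classes (rows, genes; columns, classes; red above and blue below the mean). Gsr, Mgst1 and Cybb are reddest in monocyte-like cells, Slc7a11 in neutrophil-like cells at 122 CPM, and Mgst2 in T-like cells at 61.5 CPM.

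Macrophage-like cells numbered 623, 560 and 271 in the aneurysm, room air and control libraries, but they were not the same cells. A lipid-associated cluster led by Spp1, Gpnmb and Mmp12 held 281, 197 and 7 of them, an interferon-led cluster (Ccl12, Cxcl10, Ifit2) held 247, 305 and 9, and a resident-type cluster (Cd209f, Lyve1, Ccl24) held 95, 58 and 255. The members had no part in forming the clusters.

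In room air against control, 35 of the 42 members had enough UMIs. Of these, 11 were at least 1.5-fold higher (31.4%, against 25.2% of all 8645 genes measured in these cells) and 4 at least 1.5-fold lower (11.4%, against 13.2% of all genes), while 20 lay between. The median log2 ratio was 0.09 over the members and 0.12 over all genes. Shares this near to those of all genes are not a result about the members as a group. With median-of-ratios scaling, which removes the shift of 0.12, the split was 9 higher and 7 lower. The pentose phosphate genes, grouped with Me1, which was too low to measure, had the median furthest from 0. Of the 4 measured, 3 were higher (Pgd, Taldo1 and Tkt) and G6pdx was not, with a median log2 ratio of 1.06. The control cells were also the shallower ones and came from the library of 73% viability, and the part of either in these ratios was not tested.

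Pgd, the phosphogluconate dehydrogenase, stood at 109 CPM in room air, against 46.6 CPM in control macrophage-like cells, and at 112 CPM in aneurysm (room air over control 2.33-fold, interval 1.71 to 3.27). Taldo1 stood at 434 CPM in room air, against 193 CPM in control cells (2.25-fold, 1.93 to 2.64), and Tkt, the transketolase, at 199 and 104 CPM (1.92-fold, 1.55 to 2.39, or 1.36-fold with classes set from each cell's own markers). G6pdx, which encodes the first enzyme of the same pathway, was at 36.8 CPM in room air, against 32.5 CPM in control cells, with overlapping intervals. Gsr, which spends NADPH to reduce glutathione, was higher by the largest factor of all members measured, 76.9 CPM in room air against 21.7 CPM in control (3.55-fold, 2.26 to 5.89). Of the other glutathione genes, Gss, the glutathione synthetase, rested on 33 and 4 UMIs in room air and control (1.79-fold, 0.63 to 6.94). Gpx1, Gpx3 and Gpx4 lay within 1.5-fold.

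Of the regulators neither was past the fold: Nfe2l2 stood at 199, 181 and 159 CPM in aneurysm, room air and control macrophage-like cells, and Keap1 at 39.3, 40.8 and 48.7 CPM. The NRF2 targets differed among themselves. Txnrd1, the cytosolic thioredoxin reductase, was higher in room air, at 39.4 against 18.4 CPM in control (2.14-fold, 1.30 to 3.76). Slc7a11 was higher at 16.2 CPM in room air against 6.50 CPM in control, from 69 and 6 UMIs (2.49-fold, 1.09 to 7.01). Gclm, the modifier subunit of glutamate-cysteine ligase, stood at 34.9 CPM in room air, against 48.7 CPM in control (0.72-fold), and Srxn1, the sulfiredoxin that repairs over-oxidised peroxiredoxins, at 13.8 and 14.1 CPM (0.98-fold). Ephx1, the microsomal epoxide hydrolase, was lower, at 7.50 CPM in room air against 23.8 CPM in control (0.31-fold, 0.18 to 0.57).

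Among the peroxide-removing enzymes, Prdx1 was at 1806 CPM in room air, against 1188 CPM in control (1.52-fold, 1.43 to 1.62) and Prdx6 at 106 and 60.7 CPM (1.74-fold, 1.32 to 2.34). Prdx1 lay inside the 1.5-fold limit with median-of-ratios scaling, at 1.40-fold, and with every cell weighted the same, at 1.39-fold. Sod2, the mitochondrial superoxide dismutase, was at 128 CPM in room air, against 81.2 CPM in control (1.58-fold, 1.24 to 2.03). The glutathione transferases split by gene. Gsto1 was higher in room air, at 90.9 against 39.0 CPM in control (2.33-fold, 1.66 to 3.38), whereas Mgst1 was lower, at 64.9 against 119 CPM (0.54-fold, 0.44 to 0.69), and so was Gstm1, at 67.0 against 110 CPM (0.61-fold, 0.48 to 0.77). The oxidase subunits lay within the fold: Cyba was at 2465 CPM in room air, against 1691 CPM in control (1.46-fold), Cybb at 314 and 295 CPM and Ncf1 at 94.9 and 88.8 CPM. Tiparp, an ADP-ribosyltransferase that the aryl hydrocarbon receptor induces, was lower at 21.3 CPM in room air against 49.8 CPM in control (0.43-fold, 0.30 to 0.62).

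**Figure D2:**
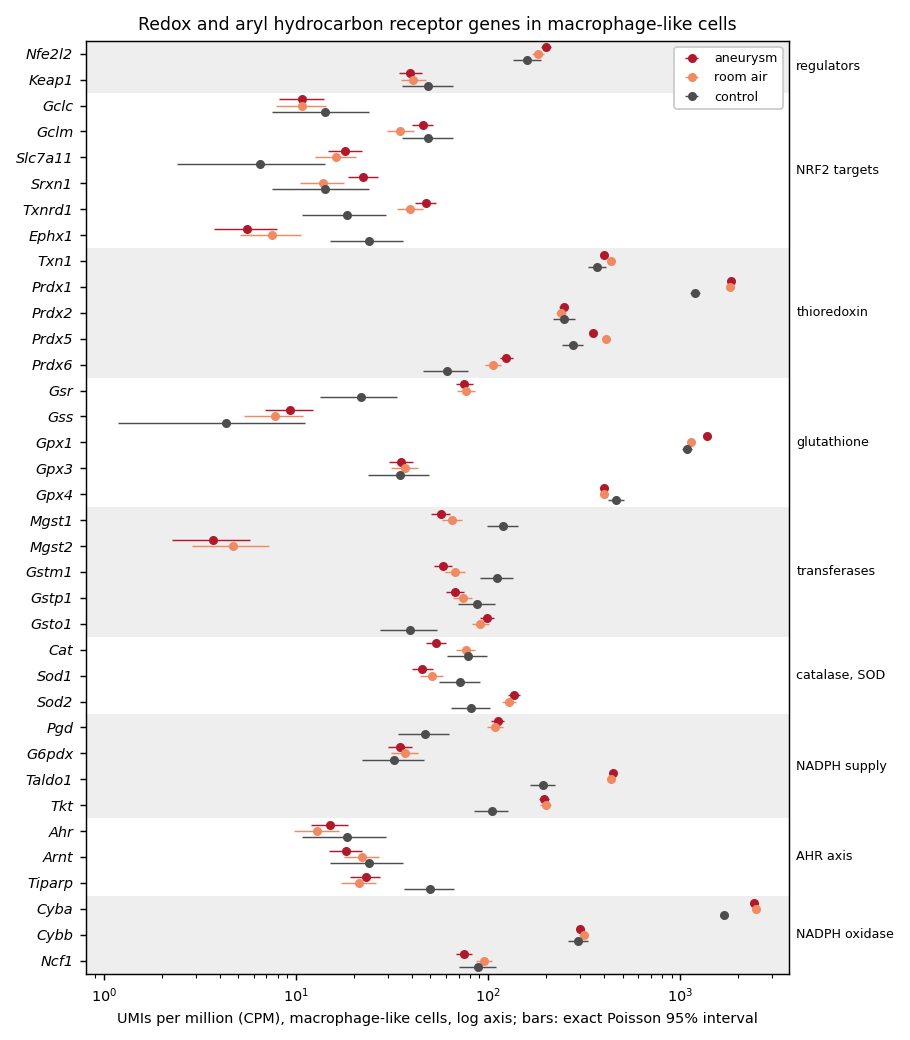
CPM (log axis) of the measured genes in macrophage-like cells of the aneurysm, room air and control libraries, with exact Poisson 95% intervals, grouped by role. Pgd, Taldo1, Tkt and Gsr lie higher in aneurysm and room air than in control, while Mgst1, Ephx1 and Tiparp lie lower.

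These ratios depended on the cluster that the macrophage-like cells came from. Within the resident-type cluster alone, 58 room air cells against 255 control cells, 27 members were measured; 2 were higher (background 12.1%) and 5 lower (background 12.3%). Pgd was then at 49.5 CPM in room air, against 46.9 CPM in control, Tkt at 98.9 and 98.4 CPM, and Taldo1 at 240 and 184 CPM, all within 1.5-fold. Gsr rested on 7 UMIs in room air and 18 in control, at 24.7 and 21.1 CPM. So Pgd, Tkt and Taldo1, past the fold in the whole class, were inside it here, and Gsr had too few UMIs to call. Mgst1, at 148 CPM in room air, against 128 CPM in control, and Gstm1, at 98.9 and 114 CPM, also lay within it. Tiparp stayed lower inside the cluster, with 3 UMIs in room air and 39 in control (0.23-fold, 0.05 to 0.73). Gclm was lower there too, with 4 UMIs in room air and 44 in control (0.27-fold, 0.07 to 0.75). Gpx1, the main cytosolic glutathione peroxidase, was lower at 597 CPM in room air against 1064 CPM in control cells (0.56-fold, 0.47 to 0.66), as was Cybb at 166 against 287 CPM (0.58-fold, 0.41 to 0.79). Gpx3 was higher, at 127 CPM in room air against 36.3 CPM in control cells (3.50-fold, 2.11 to 5.85). Sod1 (0.56-fold) and G6pdx (1.51-fold) passed the limit with intervals that include 1.

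Of 73 further genes of the same pathways, chosen with earlier results known, 57 were measured in macrophage-like cells for room air over control, of which 10 were higher and 10 lower, beside 25.2% and 13.2% of all genes; nothing particular to the list is read from these counts. Maff, which encodes a small MAF partner of NRF2, was 4.98-fold higher on 46 room air and 2 control UMIs (interval 1.30 to 42.3). Hvcn1, the proton channel that sustains the oxidase, was 4.72-fold higher, Msrb1, a methionine sulfoxide reductase, 2.60-fold, Rpe, the ribulose-phosphate epimerase, 2.52-fold, and Rac2, the GTPase of the oxidase, 1.93-fold. At the other end, Ggt5, a gamma-glutamyl transferase, was at 0.22-fold, Abcc1, a glutathione conjugate exporter, at 0.26-fold, Blvrb, the biliverdin reductase B, at 0.34-fold (216 CPM in room air, against 629 CPM in control), Sepp1, the selenoprotein P gene, at 0.38-fold and Txnip, the thioredoxin inhibitor, at 0.39-fold. Hmox1, the haem oxygenase that NRF2 induces, was at 0.64-fold. These ratios are over the whole class, whose clusters differ in share between room air and control. Within the resident-type cluster alone, 42 genes of this list were measured, 3 higher (background 12.1%) and 6 lower (background 12.3%).

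Aneurysm and room air macrophage-like cells were close in these genes. They were about as close over all genes, so this is not a result about the members as a group. Of 36 members measured, 1 was at least 1.5-fold higher (background 2.87% of 9724 genes) and 0 were lower (background 5.55%), and the median log2 ratio was -0.02 over the members and -0.02 over all genes. The member past the fold was Srxn1, at 22.4 CPM from 121 UMIs in aneurysm and 13.8 CPM from 59 UMIs in room air (1.62-fold, 1.18 to 2.25). The other NRF2 targets lay inside the fold. Gclm was at 45.8 CPM in aneurysm and 34.9 CPM in room air (1.31-fold, 1.07 to 1.62), Txnrd1 at 47.4 and 39.4 CPM (1.20-fold) and Slc7a11 at 18.0 and 16.2 CPM (1.11-fold). Cat, the catalase gene, had the lowest ratio of the measured members, at 53.5 CPM in aneurysm and 76.2 CPM in room air (0.70-fold, 0.60 to 0.83). Cyba, at 2413 CPM in aneurysm and 2465 CPM in room air, Cybb, at 302 and 314 CPM, and Ncf1, at 74.7 and 94.9 CPM, did not pass it either. Of 60 further pathway genes measured, Gstk1, a glutathione transferase, was higher (1.58-fold) on 40 UMIs in aneurysm and 20 in room air, and Gstt1, another, was lower (0.49-fold) on 13 and 21 UMIs. Next in order, inside the fold, were Ggt5 at 1.48-fold, Abcc4 at 1.40-fold, Abcc1 at 1.39-fold and Glrx, a glutaredoxin, at 1.32-fold, and at the low end Hsp90ab1 at 0.68-fold, Mafk, a small MAF, at 0.73-fold, Ptges3 at 0.76-fold and Nnt, the mitochondrial NADPH transhydrogenase, at 0.78-fold.

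**Figure D3:**
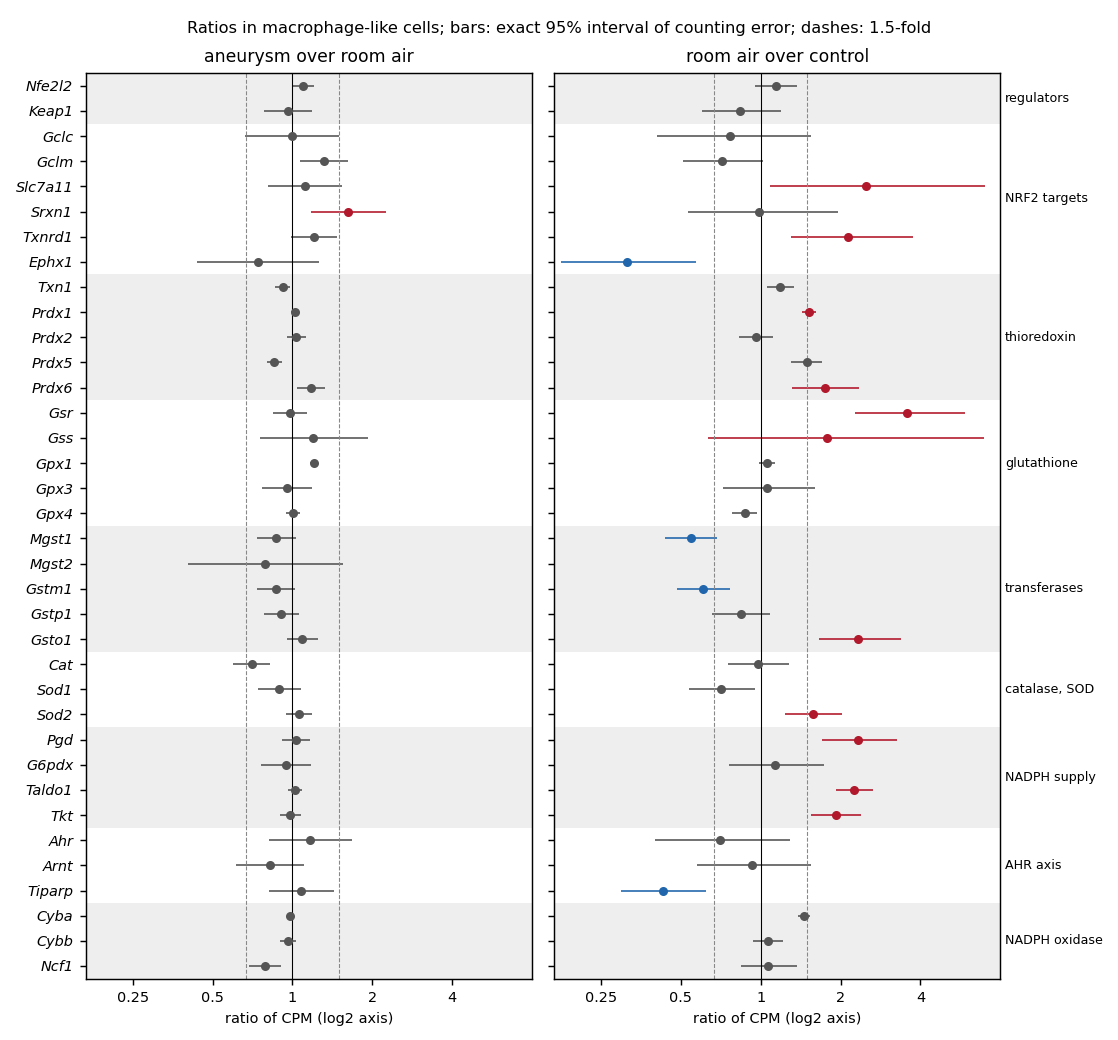
Ratio of CPM in macrophage-like cells (log2 axis) for aneurysm over room air (left) and room air over control (right), with exact 95% intervals of counting error; dashed lines mark 1.5-fold. On the left only Srxn1, at 1.62, is past the line; on the right 11 genes lie above it and 4 beneath.

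The Srxn1 difference was found in the lipid-associated cluster. There Srxn1 was at 35.8 CPM from 92 UMIs in aneurysm and 19.7 CPM from 35 UMIs in room air (1.81-fold, 1.22 to 2.76). Gclm was at 72.7 CPM from 187 UMIs in aneurysm and 47.9 CPM from 85 UMIs in room air (1.52-fold, 1.17 to 1.99), and Gss had 29 and 13 UMIs (1.54-fold). Gclm was at 1.42-fold with no limit on genes or mitochondrial share. Mgst1 was lower, at 41.6 CPM in aneurysm against 72.1 CPM in room air (0.58-fold). These 3 higher and 1 lower were of 33 members measured, where 4.79% and 5.88% of all 7946 genes passed the same limits. Slc7a11, at 29.2 CPM in aneurysm and 20.9 CPM in room air (1.40-fold), and Txnrd1, at 72.3 and 59.7 CPM, were higher without passing 1.5-fold. In the interferon-led cluster the same genes stood level or lower in aneurysm: Srxn1 at 9.65 CPM in aneurysm and 9.50 CPM in room air, Gclm at 21.7 and 27.1 CPM, and Slc7a11 at 8.20 and 11.3 CPM. Of 34 members measured there, 0 were higher (background 3.87%) and 1, Cat at 0.66-fold, was lower (background 7.16%). The difference between the clusters was not tested.

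Single cells give the same order for the lipid-associated cluster. At least 1 Srxn1 UMI was found in 54 of 281 aneurysm cells (19.2%, exact binomial interval 14.8 to 24.3%) and in 27 of 197 room air cells (13.7%, 9.23 to 19.3%), and the intervals overlap. With every cell thinned to 3000 UMIs, which left out 18 aneurysm and 13 room air cells, the shares were 8.96% and 4.31%. In B-like cells Srxn1 was found in 0 of 444 aneurysm cells and in 3 of 226 room air cells. The 0 allows a share of up to 0.676%. The B-like medians were 2383.5 and 2227.5 UMIs per cell, against 8343 and 8032 in the lipid-associated cluster. The estimated share of stray RNA was also lower in B-like cells than in this cluster, in aneurysm and in room air. Shares of B-like cells with a UMI therefore do not give the level of stray RNA in the cluster. Gclm was found in 32.4% of aneurysm cells of the cluster (26.9 to 38.2%) and 28.4% of room air cells (22.2 to 35.3%), with overlapping intervals. After thinning the shares were 14.3% and 11.4%. A single aneurysm cell carried 16 of the 187 Gclm UMIs, and a single room air cell 11 of the 85. In B-like cells Gclm was found in 6.31% and 5.75%. Slc7a11 was found in 16.0% and 9.64% of aneurysm and room air cells of the cluster and in 7.54% and 5.23% after thinning. The cluster, the depth and the analysis of these 3 genes in it were singled out after their values were seen.

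The lipid-associated cells were the macrophage-like cells with the most NRF2 transcript. Nfe2l2 stood at 259 CPM in aneurysm and 227 CPM in room air cells of this cluster, against 157 and 154 CPM in interferon-led cells and 108 and 110 CPM in resident-type cells, whose control level was 162 CPM. Prdx1 stood at 2649 and 2757 CPM in aneurysm and room air cells of the lipid-associated cluster, against 1029 and 1104 CPM in interferon-led cells and 1342 and 1321 CPM in resident-type cells. Gsr had the same pattern, at 104 and 107 CPM in aneurysm and room air lipid-associated cells, 47.3 and 59.3 CPM in interferon-led cells and 54.4 and 24.7 CPM in resident-type cells. Mgst1 ran the other way and was highest in resident-type cells, at 169, 148 and 128 CPM in aneurysm, room air and control. Because clusters are cut from expression, these levels describe the clusters. In the resident-type cluster itself, aneurysm over room air had 25 members measured, 4 higher (background 12.3%) and 1 lower (background 9.38%). Gpx1 was at 1310 CPM in aneurysm and 597 CPM in room air (2.19-fold, 1.86 to 2.60), with control at 1064 CPM. Cybb was at 271 CPM in aneurysm and 166 CPM in room air (1.63-fold, 1.18 to 2.29), Gsto1 at 67.7 and 28.3 CPM (2.40-fold, 1.13 to 5.85) and Gsr at 41 and 7 UMIs (2.20-fold, 0.98 to 5.81), while Cat was lower (0.56-fold, 0.34 to 0.94). The room air level behind these ratios comes from 58 cells.

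**Figure D4:**
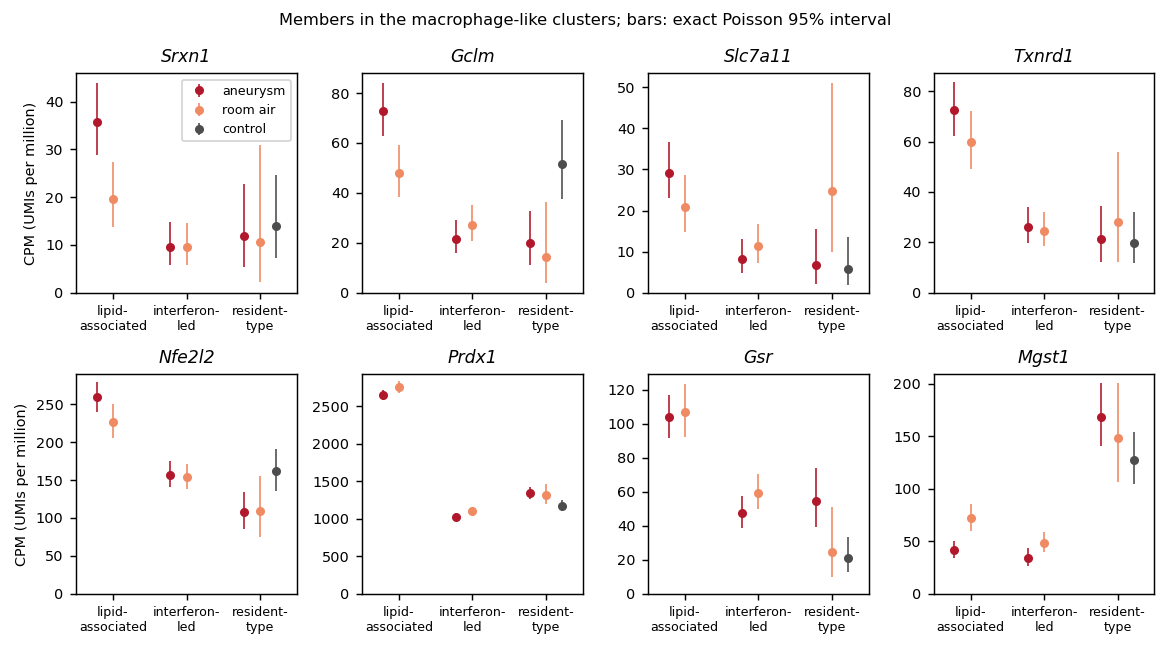
CPM of 8 genes in the lipid-associated, interferon-led and resident-type macrophage-like clusters, with exact Poisson 95% intervals; control is drawn for the resident-type cluster, where it has 255 cells. Srxn1 and Gclm differ between aneurysm and room air in the lipid-associated cluster, at 35.8 against 19.7 and 72.7 against 47.9 CPM, and Mgst1 is highest in the resident-type cluster.

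Slc7a11 differed widely among the myeloid classes. In cDC2-like cells it stood at 30.8 CPM from 62 UMIs in aneurysm, 15.4 CPM from 14 UMIs in room air and 0 UMIs in 18 control cells (aneurysm over room air 1.99-fold, 1.10 to 3.86). It was found in 39 of 277 aneurysm cells (14.1%, interval 10.2 to 18.7%) and 6 of 125 room air cells (4.80%, 1.78 to 10.2%), or in 7.49% and 2.83% after thinning to 3000 UMIs. In monocyte-like cells it stood at 80.0, 54.2 and 5.59 CPM in aneurysm, room air and control, from 133, 28 and 1 UMIs. Cells with a UMI made up 21.1% (16.1 to 26.8%), 7.84% (3.45 to 14.9%) and 1.72% (0.0436 to 9.24%) of the class in the same order, and 13.7%, 5.83% and 2.53% after thinning. A single room air cell carried 18 of the 28 UMIs, so the share of cells and the CPM give different distances between aneurysm and room air. In B-like cells the share was 1.58% and 0.44% in aneurysm and room air.

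Monocyte-like cells join a cluster led by Chil3 and Hp, with 200, 72 and 40 cells in aneurysm, room air and control, and a cluster led by Treml4 and Adgre4. The latter had 42, 30 and 18 cells in the same order, and the part of this mix in the ratios was not tested. In monocyte-like cells, room air over control had 25 members measured, 8 higher (background 24.1%) and 3 lower (background 6.8%). Sod2 was at 226 CPM in room air, against 89.4 CPM in control (2.53-fold, 1.49 to 4.57), Txn1, the thioredoxin gene, at 515 and 285 CPM (1.81-fold, 1.33 to 2.49) and Prdx6 at 281 and 162 CPM (1.73-fold, 1.16 to 2.68). Nfe2l2 itself was past the fold in this class, at 271 CPM in room air, against 168 CPM in control (1.62-fold, 1.08 to 2.48). Mgst1 was lower, at 310 CPM in room air against 514 CPM in control (0.60-fold, 0.46 to 0.79). The other 2 lower members were Ahr (0.48-fold, 0.22 to 1.06, on 18 and 13 UMIs) and Sod1 (0.64-fold, 0.31 to 1.37, on 24 and 13 UMIs), both with intervals that include 1. Of the members with at least 100 UMIs, Tkt at 0.77-fold and Gpx1 at 0.87-fold followed Mgst1 without passing the limit. In aneurysm over room air, 33 members were measured, with 1 higher (background 10.1%) and 2 lower (background 8.69%). G6pdx was at 40.3 CPM in aneurysm and 79.3 CPM in room air (0.51-fold, 0.34 to 0.77) and Gsto1 at 115 and 174 CPM (0.66-fold, 0.51 to 0.86), with Gstm1 next at 0.69-fold. Slc7a11, Txnrd1 (1.35-fold) and Prdx1 (1.20-fold) had the highest ratios of the members with at least 100 UMIs.

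In dendritic cells few members were past the fold between aneurysm and room air. The counts are too small beside the background shares to be a result about the members. Of 29 measured in cDC2-like cells, 2 were higher (background 7.58%), Slc7a11 and Tiparp, and 1 lower (background 7.56%), Keap1 at 0.64-fold. Nfe2l2 at 1.35-fold, Txnrd1 at 1.34-fold and Cybb at 1.29-fold were the highest with at least 100 UMIs, and Prdx5 at 0.74-fold, Ncf1 at 0.80-fold and Gstp1 at 0.81-fold the lowest. In mature dendritic cell-like cells 1 of 21 was higher (background 8.15%) and 2 lower (background 11.7%). The higher one was Gclc, the catalytic subunit of glutamate-cysteine ligase, on 28 UMIs in aneurysm and 5 in room air (2.71-fold, 1.03 to 9.0); Txn1 was at 1.21-fold, Gpx1 at 1.14-fold, Gpx4 at 1.07-fold, Cyba at 0.96-fold, Prdx1 at 0.95-fold and Gsto1 at 0.88-fold. In cDC1-like cells 0 of 22 were higher (background 12.1%) and 1 lower (background 7.11%), with Tkt at 1.40-fold, Sod2 at 1.33-fold, Gpx4 at 1.23-fold, Prdx5 at 0.97-fold, Prdx2 at 0.94-fold and Txn1 at 0.89-fold. Against control, room air cDC1-like cells had 5 of 15 members higher (background 25.9%) and 0 lower (background 6.49%), of which Taldo1 had the most UMIs, at 1106 CPM in room air, against 617 CPM in control (1.79-fold, 1.41 to 2.29). Prdx1 at 1.40-fold and Prdx2 at 1.27-fold followed, and Gpx1 at 1.06-fold, Cyba at 0.87-fold and Gpx4 at 0.86-fold were the lowest with at least 100 UMIs.

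Neutrophil-like cells could be compared between aneurysm and room air, where 1 of 30 members was higher (background 6.94%) and 5 were lower (background 9.63%). Pgd was at 76.1 CPM in aneurysm and 136 CPM in room air (0.56-fold, 0.39 to 0.79) and Ncf1 at 87.1 and 146 CPM (0.60-fold, 0.43 to 0.83). Slc7a11 (1.34-fold), Prdx6 (1.34-fold) and Sod2 (1.30-fold) had the highest ratios with at least 100 UMIs, and Prdx5 (0.89-fold) followed Ncf1 at the low end. This class carried macrophage RNA in each library: C1qa stood at 3198, 3667 and 3061 CPM in aneurysm, room air and control, beside S100a8, a neutrophil gene, at 6749, 7577 and 62557 CPM. The part of that RNA in the class's levels was not tested.

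In T-like cells, 2 of 28 members were higher in aneurysm over room air (background 5.16%) and 4 lower (background 17.0%): Cybb at 0.42-fold, Gpx1 at 0.60-fold, Prdx5 at 0.62-fold and Cyba at 0.65-fold (665 CPM in aneurysm and 1015 CPM in room air). C1qa in the same cells was at 153 CPM in aneurysm and 547 CPM in room air. After subtraction of the estimated stray RNA, Gpx1 was at 0.84-fold and Cyba at 0.74-fold, inside the limit, and Cybb at 0.54-fold and Prdx5 at 0.66-fold, past it. Tkt was higher in aneurysm, at 136 CPM against 88.7 CPM in room air (1.53-fold, 1.19 to 1.97), and 2.06-fold after the subtraction. Txnrd1 was at 1.52-fold with an interval that includes 1, and Prdx6 at 1.30-fold. In room air over control, 9 of 23 were higher (background 40.1%) and 0 lower (background 6.01%), and the median log2 ratio of all genes was 0.38, so these ratios are best read against that shift. Cyba was at 2.17-fold, Prdx5 at 1.88-fold and Gpx1 at 1.72-fold, with Gpx1 at 1.00-fold after the subtraction; Tkt at 0.88-fold, Gstp1 at 0.92-fold and Prdx6 at 1.02-fold were the lowest. A cluster led by Gzmk, with Cd8a among its leading genes, held 85 of the 539 aneurysm, 226 of the 401 room air and 2 of the 92 control T-like cells, and another, led by Dapl1 and Cd8b1, held 260, 73 and 43 in the same order.

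B-like cells had 1 of 25 members higher (background 5.59%) and 2 lower (background 14.5%) in aneurysm over room air. Sod2 (1.31-fold), Prdx6 (1.23-fold) and Gpx4 (1.11-fold) were highest and Prdx5 (0.74-fold), Cat (0.76-fold) and Prdx2 (0.79-fold) lowest with at least 100 UMIs, and none of them passed the limit. In room air over control, 7 of 18 were higher (background 21.1%) and 0 lower (background 9.23%). Cybb was at 223 CPM in room air, against 125 CPM in control B-like cells (1.78-fold, 1.08 to 3.10), Txn1 at 222 and 132 CPM (1.67-fold, 1.03 to 2.87) and Prdx1 at 641 and 390 CPM (1.64-fold, 1.24 to 2.22), while Gpx1 at 0.79-fold, Prdx5 at 0.81-fold and Gpx4 at 0.87-fold were the lowest. C1qa in B-like cells was at 554 CPM in room air, against 209 CPM in control. After subtraction of the estimated stray RNA, 5 of the 7 members stayed past the limit, and Txn1 at 1.41-fold and Prdx1 at 1.26-fold lay inside it. The innate lymphoid classes were thin. In NK-like cells, aneurysm over room air had 1 of 15 higher (background 11.1%) and 3 lower (background 13.3%), with Gpx4 at 1.22-fold, Prdx6 at 1.16-fold, Prdx1 at 0.96-fold, Cyba at 0.83-fold, Taldo1 at 0.75-fold and Gpx1 at 0.66-fold. Room air over control had 3 of 9 higher (background 16.4%) and 0 lower (background 13.2%), with Cyba at 0.83-fold and Prdx1 at 0.94-fold. There C1qa was at 585 CPM in room air, against 136 CPM in control, and all 3 members stayed past the limit after the subtraction. ILC2-like cells had 0 of 10 members past the fold in aneurysm over room air (background 9.79% higher and 11.3% lower), with Prdx1 at 1.24-fold, Prdx6 at 1.01-fold, Gpx4 at 0.99-fold and Cyba at 0.93-fold. In room air over control 1 of 7 was higher (background 15.3%), Prdx6 at 1.61-fold with an interval of 0.90 to 2.93, and 0 lower (background 14.8%), with Gpx4 at 1.13-fold and Cyba at 0.88-fold. Gamma-delta T-like cells had 0 of 13 higher (background 8.38%) and 1 lower (background 11.1%) in aneurysm over room air, Gsr on 16 and 19 UMIs. Prdx6 (1.19-fold), Gpx4 (1.14-fold) and Cyba (1.09-fold) were the highest there with at least 100 UMIs, and Gstp1 (0.69-fold), Taldo1 (0.83-fold) and Prdx1 (0.92-fold) the lowest.

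The targets of the aryl hydrocarbon receptor were scarce. Cyp1a1, the cytochrome classically induced by polycyclic hydrocarbons, had 0 UMIs in all 3 libraries, which allows up to 0.186, 0.306 and 1.18 CPM in aneurysm, room air and control. Ahrr, the receptor's repressor, had 6, 7 and 3 UMIs in aneurysm, room air and control. Cyp1b1 had 31, 49 and 24 UMIs, and most came from cells outside the leukocyte classes. Fibroblast-like cells, 10 in aneurysm, 8 in room air and 1 in control, held 25, 28 and 0 of them, and cluster 20 held 3, 17 and 23, at 25.8, 101 and 178 CPM. Macrophage-like cells held 2, 1 and 0. Ahr itself was low and spread over classes, at 17.9, 16.1 and 19.3 CPM over all kept cells, and stood at 52.5, 40.3 and 36.3 CPM in cDC1-like cells and at 27.7, 34.8 and 72.7 CPM in monocyte-like cells. Tiparp was at 23.5, 18.8 and 33.9 CPM over all kept cells, so the smoke-exposed aneurysm library lay between room air and control. In single classes its aneurysm over room air ratio was past 1.5 in monocyte-like cells (51 and 9 UMIs, 1.76-fold, 0.86 to 4.07) and cDC2-like cells (58 and 16 UMIs, 1.63-fold, 0.93 to 3.04), with intervals that include 1. In cluster 20, room air over control had 1 of 16 members higher (background 15.8%) and 3 lower (background 14.2%). Gstm1 was the one whose interval excludes 1, at 196 CPM in room air, against 464 CPM in control (0.42-fold, 0.27 to 0.66). Of the members with at least 100 UMIs there, Cyba was at 1.39-fold, Gpx1 at 0.94-fold, Gpx4 at 0.90-fold, Prdx1 at 0.82-fold and Txn1 at 0.79-fold.

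**Figure D5:**
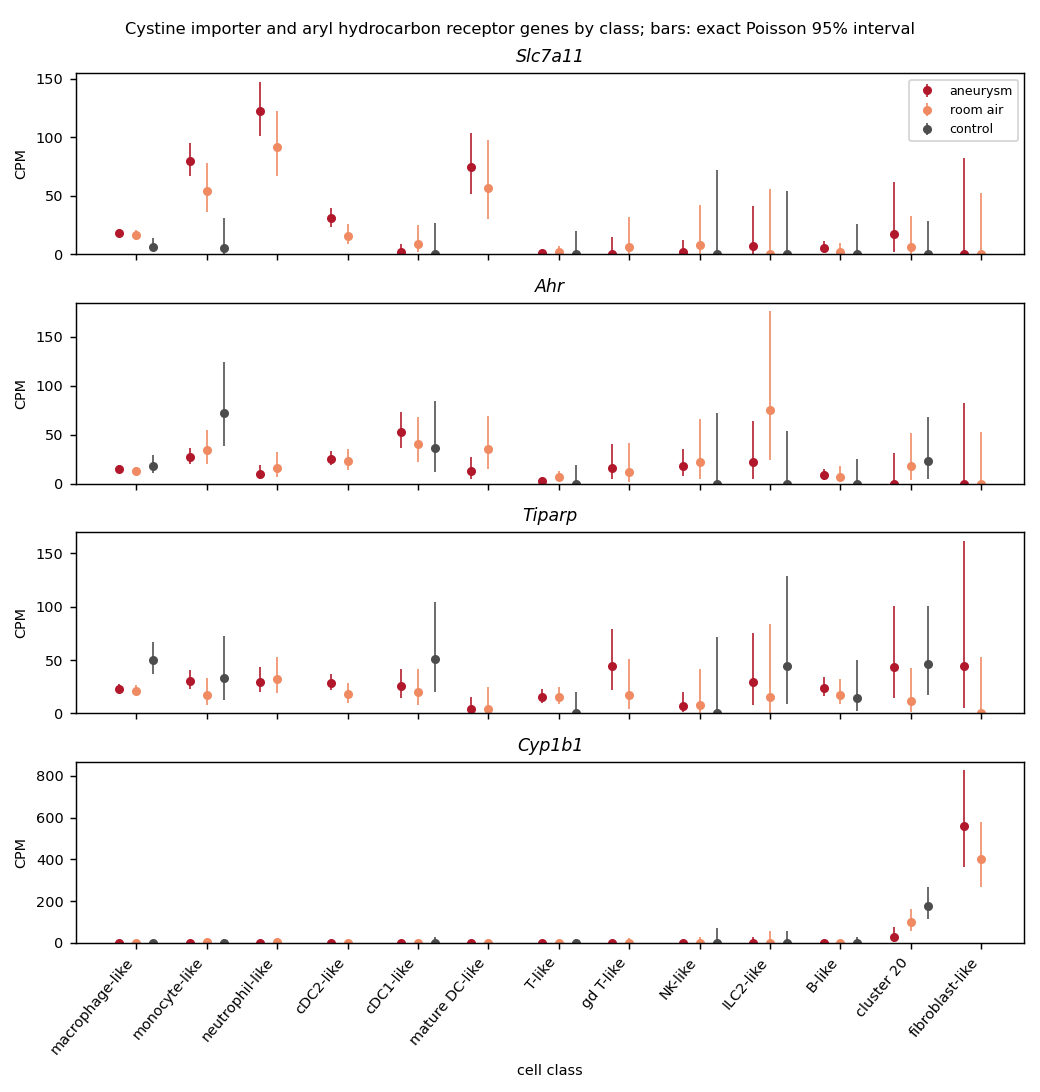
CPM of Slc7a11, Ahr, Tiparp and Cyp1b1 by class, with cluster 20 and fibroblast-like cells, for aneurysm, room air and control, with exact Poisson 95% intervals. Slc7a11 is highest in neutrophil-like cells, at 122 CPM in aneurysm, and Cyp1b1 is near 0 outside cluster 20 and fibroblast-like cells.

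The remaining members were too low for a ratio in macrophage-like cells. Nqo1, the quinone reductase often read as the NRF2 reporter, had 21, 7 and 8 UMIs over all kept aneurysm, room air and control cells, of which the lipid-associated cluster held 9, 4 and 0 and cluster 20 held 2, 0 and 7. Me1, the cytosolic malic enzyme, had 7, 9 and 3 UMIs, with 4, 4 and 3 of them in cluster 20, and Gsta4 had 2 in each library. In cluster 20 the 0 room air and 7 control UMIs of Nqo1 were below the UMI minimum for a ratio. With a floor of 3 counts in room air, its level there would be 3.04-fold lower than in control. That value takes the 7 control UMIs as exact, so it is not a lower bound and is not read as a difference.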

How the data were processed

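Cells were captured with the 10x Genomics Single Cell 3′ v2 kit. The deposited matrices hold UMI counts per gene and cell barcode as whole numbers, not normalized; per the submitters' processing notes Cell Ranger and STAR were used with mm10, and their versions and settings are not given in the sources used here. All else was computed from these counts with scanpy 1.11.5, scipy 1.17.1, numpy 2.4.6, pandas 2.3.3 and Python 3.11.15. Barcodes with at least 200 genes and at most 10% mitochondrial UMIs were kept. Scrublet's automatic threshold marked 4 of 5475 barcodes (0.0731%), which is too few to have worked, so the highest scorers were removed at 0.8% per 1000 cells (65 aneurysm, 27 room air and 5 control barcodes).

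Cells of all libraries were clustered together on 2000 variable genes, without the members and Apoe, with 30 principal components, 15 neighbours and Leiden resolution 1. Clusters were named from listed markers with at least 3 detected and a score of at least 1.0, a limit set after the clusters were seen. A marker of the class also had to be among the 10 leading genes. The names are rebuilt and may differ from the study's. Counts were summed per library and class and compared as CPM. Only classes with at least 25 cells in both libraries were compared. A level of 0 was given the limit of 3 counts. Members, lists and limits were chosen with earlier results of these data known. Genes named per class are the largest and smallest ratios with at least 100 UMIs, those past 1.5-fold in macrophage-like cells, those whose top class was at least 5 times the median class, and a list of regulators, NRF2 and receptor targets and oxidase subunits. Stray RNA was estimated for each class and library. Lymphoid classes used C1qa, C1qb and C1qc, and myeloid classes used Cd79a, Cd79b, Cd3d, Cd3e, Cd3g and Ms4a1. The stray profile was taken as the sum over all barcodes of a library, not from empty droplets. In macrophage-like cells the estimated share was 33.0%, 40.4% and 12.9% in aneurysm, room air and control. It was 8.46%, 21.3% and 5.73% in T-like cells and 40.1%, 45.8% and 62.3% in neutrophil-like cells, in the same order. These shares depend on the genes used and are rough estimates, not measured amounts of stray RNA. Gene coordinates and IDs of all 42 members matched GENCODE M21. Alternatives changed the scaling, the UMI minimum, the doublet and cell filters, the way cells get their class, the weight of cells, the stray RNA and the macrophage clusters used. With 1 library per group, there was no test; the calculation was checked on simulated counts.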

Additional observations from a re-analysis of the deposited data

How the results depend on the processing

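For room air over control in macrophage-like cells, the 11 higher and 4 lower members became 9 higher and 7 lower with median-of-ratios scaling. Leaving out the resident-type cluster leaves 16 control cells. Mgst1 was then at 4.11-fold, on the other side of 1, and Slc7a11 (1.09-fold), Tkt (1.20-fold), Gsto1 (1.11-fold), Gstm1 (0.90-fold), Taldo1 (1.49-fold) and Prdx1 (1.38-fold) lay inside the limit, while Prdx6 was at 7.49-fold. For aneurysm over room air, the 1 member higher became 2 with a minimum of 10 UMIs, with classes set from each cell's own markers and without the interferon-led cluster. The 0 members lower became 1 with classes from own markers or with every cell weighted the same, and 2 with stray RNA subtracted or without the resident-type cluster. Srxn1 in the whole class stayed past 1.5-fold in each of these alternatives. Of the 174 values of single members recomputed, 157 moved by less than their counting interval, 16 by more and 1 changed side. In the lipid-associated cluster, 6 alternatives added after seeing the data gave 1.81 to 2.07 for Srxn1, 1.42 to 1.72 for Gclm and 1.28 to 1.67 for Slc7a11. Of the 66 calls in other classes, where a member counts once for each class and comparison, 49 stayed past the fold with median-of-ratios scaling, 55 with stray RNA subtracted, where 1 other changed direction, and 54 without doublet removal. No paired analysis was possible because each group has 1 library. The control library, with the fewest cells and UMIs, limits the precision of ratios against it.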

Other observations

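The fibroblast-like cells that came through the sort, 10 in aneurysm and 8 in room air, carried the highest Gpx3 and Mgst1 of any class. Gpx3, the secreted glutathione peroxidase, stood at 4255 CPM from 190 UMIs in aneurysm and 772 CPM from 54 UMIs in room air. Mgst1 stood at 1030 and 686 CPM. Sod3, the extracellular superoxide dismutase, stood at 605 and 415 CPM, and Gpx8, an endoplasmic reticulum peroxidase, at 314 and 329 CPM. The single control cell of this class gives no level to set beside them. C1qa in the fibroblast-like cells stood at 44.8 CPM in aneurysm and 1215 CPM in room air, and the part of macrophage RNA in these levels was not tested.

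Plasma cell-like cells, 14 in aneurysm and 19 in room air, were high in Prdx4, the peroxiredoxin of the endoplasmic reticulum, at 574 and 644 CPM, and in Slc3a2, the heavy chain that pairs with the cystine importer and other transporters, at 2202 and 898 CPM. The dividing cells, cluster 18, led by Top2a and Birc5, had 0 of 24 members higher (background 12.3%) and 4 lower (background 14.6%) in aneurysm over room air. Nfe2l2 was at 77.2 CPM in aneurysm and 139 CPM in room air (0.56-fold), Cyba at 0.58-fold and Cybb at 0.64-fold, while Prdx6 and Taldo1, at 1.29-fold each, and Tkt, at 1.01-fold, were highest. C1qa in this cluster stood at 1107 CPM in aneurysm and 3285 CPM in room air, and the part of its mix of cell types in these ratios was not tested.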
